A study of Mus musculus with 10 samples.

Results

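The genes described here lie around Deptor on mouse chromosome 15: Pkhd1l1, Tnfrsf11b, Colec10, Mal2, Enpp2, Taf2, Dscc1, Mtbp, Sntb1 and Has2. They were taken from a list of 10 genes near Deptor that leaves out Deptor itself, the collagens and the mitochondrial ribosome genes. Of the 10, 9 were read by a probe set that named a single gene and had a value on all arrays, out of 19659 such genes in all. Enpp2 was not analysed here. Each of the 9 was read by 1 probe set, so the choice of the brightest probe set of a gene did not enter. The list was drawn up with earlier results of these data known, Pkhd1l1 among them, so the number of listed genes past a threshold is a description and supports nothing beyond itself.

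The arrays measured RNA of inguinal-femoral subcutaneous fat from 10 untreated F2 females aged 14 weeks on a chow diet, 1 mouse per array. FF mice (5) were homozygous for the Fat-line allele at Fob3a, an obesity locus, and VV mice (5) were homozygous for the allele of a congenic V line. The V line descends from 1 recombinant founder backcrossed repeatedly to the Fat line, so both groups were bred on a largely shared Fat-line background. Where the segment that separates FF from VV begins and ends was not analysed here. Values were log2 intensities normalised between arrays, with array medians of 7.15 to 7.17 in FF and 7.18 to 7.21 in VV. Markers of mature adipocytes were bright in every mouse, with a mean over 6 genes of 13.05 to 13.16 in FF and 13.01 to 13.13 in VV. A list of 12 liver genes averaged 11.62 in VV replicate 1 and 8.70 in VV replicate 2, against 7.43 to 7.93 in the other 8 mice, and a list of 10 skeletal muscle genes averaged 9.44 in FF replicate 1 against 6.90 to 7.80 elsewhere.

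Genes that sit side by side on a chromosome are inherited together, so a cross that sorts mice by alleles at a locus also sorts them by alleles of its neighbours. Expression levels alone do not show whether a difference between such groups arises at the gene itself. The neighbours of Deptor have unrelated jobs. Some encode secreted or surface proteins, such as osteoprotegerin (Tnfrsf11b), autotaxin (Enpp2) and the collectin CL-L1 (Colec10). Others work at membranes (Mal2, Sntb1), make hyaluronan of the extracellular matrix (Has2) or act in the nucleus (Taf2, Dscc1, Mtbp).

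Deptor, an inhibitor of the mTOR kinase and the anchor of the list, had 10.80 to 10.97 in FF and 10.21 to 10.43 in VV. Its difference (FF minus VV) was 0.55 ± 0.06 (SE) with an adjusted p of 0.00553. Beside it, 2 of the 9 measured genes passed an adjusted p of 0.05 over all genes, Pkhd1l1 and Colec10, both lower in FF. Over all 19659 genes 0.753% passed, 0.621% higher and 0.132% lower in FF. No listed gene was higher in FF past the threshold. Of the 5 with a higher mean in FF, Sntb1 and Taf2 each had 4 of 5 FF mice above every VV mouse. Neither passed the test, and the share of all genes with that property was not counted. The median difference of the 9 genes was 0.02, against 0.00 over all genes, and the sizes ran between a fall of 1.70 and a difference of 0.14. The remaining 7 genes did not pass the test, and their 95% intervals are given with their values.

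**Figure D1:**
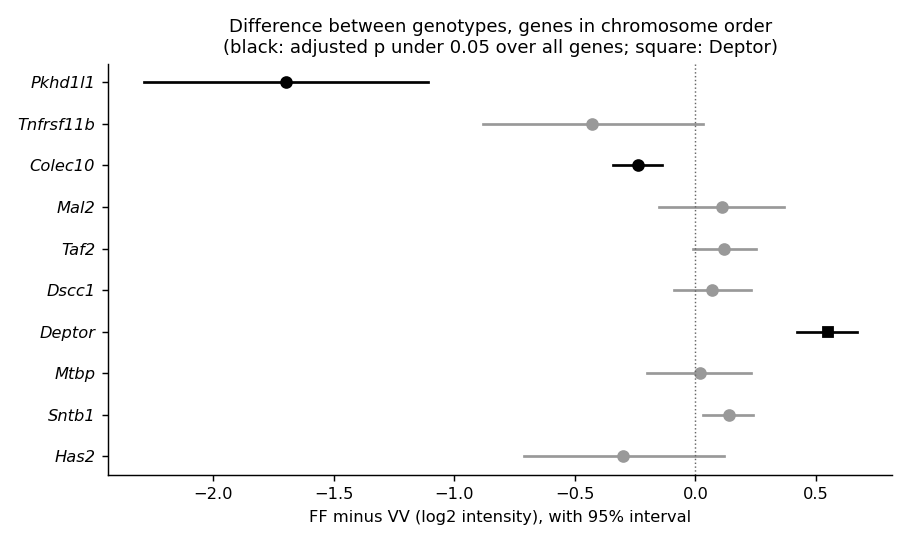
Difference FF minus VV in log2 intensity (horizontal axis) for the 9 measured listed genes and Deptor in chromosome order, with 95% intervals from limma. Pkhd1l1 (-1.70) and Colec10 (-0.24) lie to the left of 0 in black, and Deptor (0.55) is the only gene in black to the right.

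Pkhd1l1 showed the largest difference of the 9 genes. It encodes a very large membrane protein related to fibrocystin, and in mouse it is known from the coat of hair cell stereocilia. Its log2 intensity was 7.74, 8.58, 8.56, 8.65 and 7.51 in FF replicates 1 to 5, and 9.87, 10.18, 9.15, 10.16 and 10.18 in VV replicates 1 to 5. The highest FF mouse lay 0.50 below the lowest VV mouse, so the groups did not overlap, and 4.7% of all genes tested shared that property. FF replicates 1 and 5 stood apart as the lowest of their group, and VV replicate 3 as the lowest of its group. The mean was 8.21 ± 0.54 in FF and 9.91 ± 0.44 in VV (SD of 5 mice each), a difference of -1.70 ± 0.27 (SE), or a level 3.25-fold lower in FF with a 95% interval from 2.16 to 4.9. The adjusted p was 0.0334, at rank 33 of all genes by p. In whole tissue, fewer cells of a type and less RNA per cell cannot be told apart. The sequences of the probes and of the FF and VV alleles under them were not used here.

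The call of Pkhd1l1 rested on the full set of mice. Its adjusted p was above 0.05 without replicate 1 (0.0898), 2 (0.0708) or 5 (0.0563) of FF or replicate 2 (0.0863), 4 (0.0747) or 5 (0.0652) of VV, and it stayed under 0.05 without each of the other 4 mice. The difference itself ran only from -1.89 to -1.53 over these 10 fits.

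**Figure D2:**
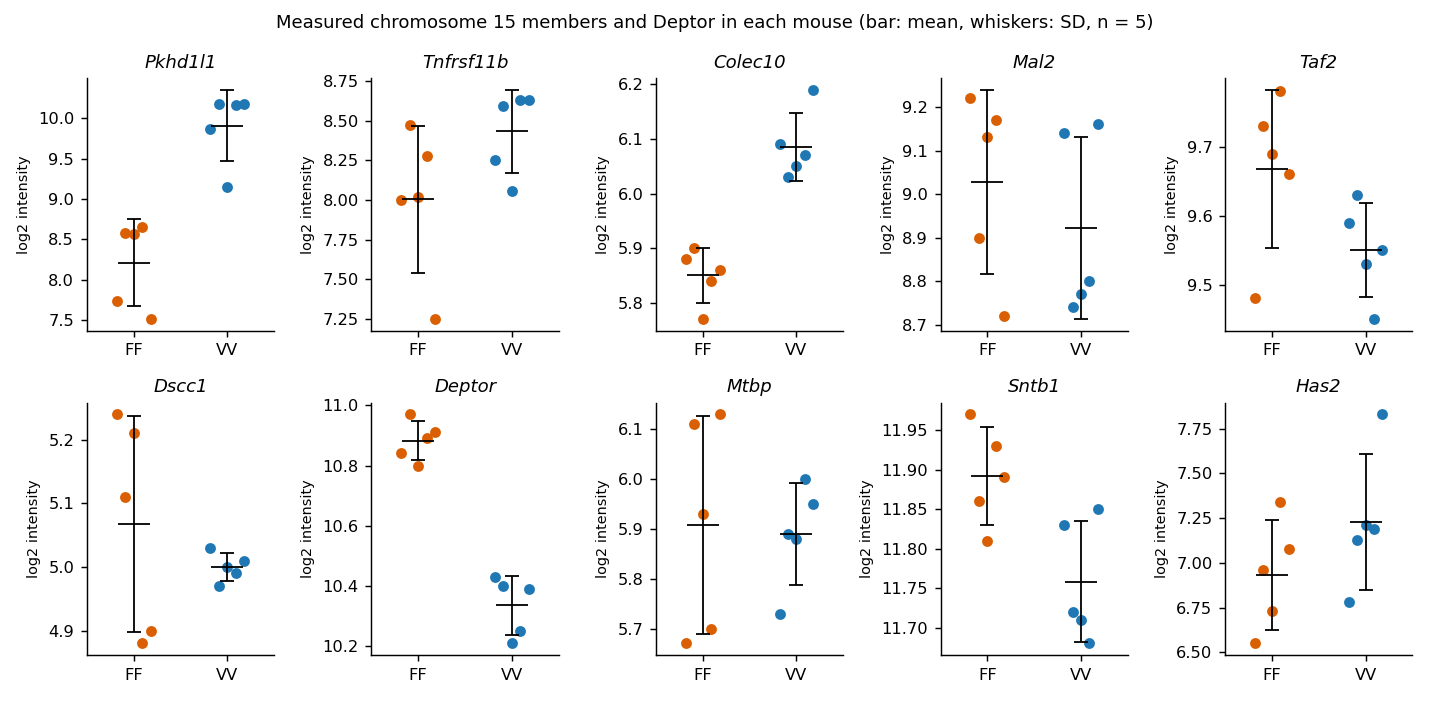
Log2 intensity (vertical axis, a separate range in each panel) of the 9 measured listed genes and Deptor in each FF mouse (orange, left) and VV mouse (blue, right), with group mean and SD (n = 5 each). The groups are separate for Pkhd1l1 and Colec10, which lie lower in FF, and for Deptor, which lies higher in FF, and they overlap in the other 7 panels.

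Among mice of 1 genotype, Pkhd1l1 varied with genes of mesothelium, the cell layer that lines body cavities and covers the organs in them. After each group mean was subtracted, the gene most like Pkhd1l1 over the 10 mice was Bnc1, a transcription factor gene of keratinocytes, germ cells and mesothelium (Pearson r = 0.977, Spearman rho = 0.976). It was followed by Ptpn13, a protein tyrosine phosphatase (r = 0.972, rho = 0.842), Ralgps2, an activator of Ral GTPases (r = 0.971, rho = 0.879), Dipk2a (r = 0.969, rho = 0.794) and Gnrh1, the precursor of gonadotropin-releasing hormone (r = 0.967, rho = 0.903). None of these 5 genes lies on chromosome 15. Their own differences between genotypes were small beside that of Pkhd1l1: Bnc1 averaged 8.87 in FF and 9.04 in VV, a difference of -0.17 (adjusted p = 0.777), and the other 4 differed by -0.29 to 0.09 (adjusted p = 0.244 to 0.789).

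The mesothelium marker list held 7 genes, Msln (mesothelin), Upk3b and Upk1b (uroplakins), Lrrn4, Wt1, Muc16 and Krt19, and all were measured. The mean over the list was 9.42, 9.59, 9.60, 9.71 and 8.68 in FF replicates 1 to 5, and 9.46, 9.69, 9.01, 9.56 and 9.79 in VV replicates 1 to 5. FF replicate 5 and VV replicate 3 were the lowest of their groups, as they were for Pkhd1l1, but the groups overlapped. All these list means lay above 7.53, the median of the means of all genes. The fat was subcutaneous, and where the marker signal came from was not tested. The group-centred r of Pkhd1l1 with the list mean was 0.90 (rho = 0.87, n = 10 mice), and 0.72 over the 8 mice left without the 2 farthest from their group mean on the list. With single markers r ran from 0.75 (Krt19) to 0.91 (Msln). All points share the arrays and their normalisation, and these relations are descriptions picked from 117 pairs of a listed gene and a marker list.

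Between the genotypes the mesothelium markers moved little. None of the 7 passed the test, their differences ran from -0.18 to 0.11, and the list mean lay 0.10 lower in FF. With the list mean as a covariate, a fit chosen after seeing the data, the difference of Pkhd1l1 was -1.58 ± 0.13 (SE) with a 95% interval from -1.87 to -1.29 and an adjusted p of 0.00205. Because the list was picked for its relation to Pkhd1l1 within the groups, the smaller standard error and p follow from that choice. At similar list means, FF replicates 2, 3 and 4 (9.59 to 9.71) had Pkhd1l1 levels of 8.56 to 8.65, and VV replicates 2, 4 and 5 (9.56 to 9.79) had 10.16 to 10.18. These mice were picked after their values were seen. The part of mesothelium in the difference was not tested.

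**Figure D3:**
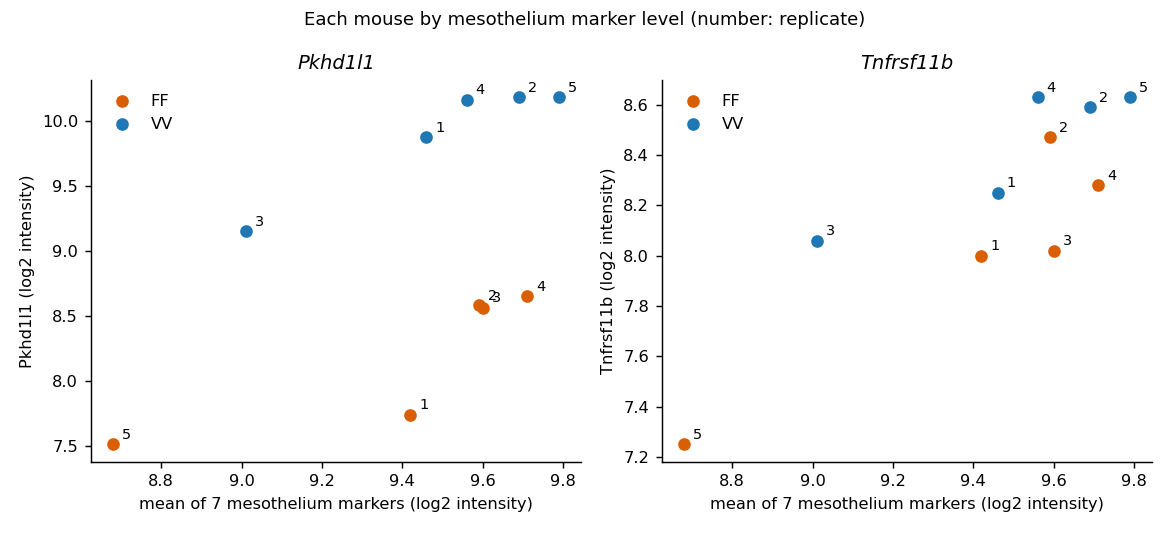
Pkhd1l1 (left) and Tnfrsf11b (right) in log2 intensity against the mean of 7 mesothelium markers in each mouse, FF in orange and VV in blue, numbered by replicate. Both genes climb with the markers in both groups, and for Pkhd1l1 all 5 FF mice (7.51 to 8.65) lie below all 5 VV mice (9.15 to 10.18).

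Leukocyte markers lay lower in FF by their means. The 8 measured T and NK cell markers, 6 B cell markers and 7 macrophage markers each had a lower mean in FF, though none passed the test. In limma an unadjusted p under 0.05 was reached by 6 of the 8, 5 of the 6 and 6 of the 7, against 16.4% of all genes. The list means were 6.70 to 6.88 in FF and 6.90 to 7.20 in VV for T and NK cells, 7.03 to 7.99 in FF and 7.72 to 8.41 in VV for B cells, and 10.04 to 10.50 in FF and 10.44 to 10.83 in VV for macrophages. The group-centred r of Pkhd1l1 was 0.00 with T and NK cells, 0.42 with B cells and 0.39 with macrophages. It was -0.85 with mature adipocytes, 0.71 with fibroblasts and preadipocytes, and 0.08 with brown and beige adipocytes. The last list had 5 of 7 members higher in FF past the threshold, with list means of 8.79 to 10.03 in FF and 6.80 to 7.66 in VV. The part of these cell types in the difference of Pkhd1l1 was not tested.

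The relatives of Pkhd1l1 did not pass the test. Pkhd1, which encodes fibrocystin, and the hyaluronan-binding proteins Cemip and Cemip2, which share a domain type with it, formed a list of 3 with a median difference of -0.06. Cemip2 averaged 7.95 in FF and 8.11 in VV (difference -0.16, adjusted p = 0.369), and Cemip averaged 5.67 in FF and 5.74 in VV (difference -0.06, adjusted p = 0.676).

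Tnfrsf11b encodes osteoprotegerin, a secreted decoy receptor that binds RANK ligand and TRAIL. It had 8.0, 8.47, 8.02, 8.28 and 7.25 in FF replicates 1 to 5, and 8.25, 8.59, 8.06, 8.63 and 8.63 in VV replicates 1 to 5. FF replicate 5 was the lowest mouse, 3 of the 5 FF mice lay below every VV mouse, and the groups overlapped. The mean was 8.01 ± 0.46 in FF and 8.43 ± 0.26 in VV (SD of 5 mice each), a difference of -0.43 with a 95% interval from -0.88 to 0.03 (adjusted p = 0.340). Group-centred levels of Tnfrsf11b and Pkhd1l1 ran together over the 10 mice (r = 0.85, rho = 0.84), the closest of 45 pairs among the 9 genes and Deptor with all mice. That r was 0.61 without the 2 mice farthest from their group mean in Pkhd1l1, and the pair was then no longer the closest. Tnfrsf11b also followed the mesothelium list mean (r = 0.92, rho = 0.76, and r = 0.64 over 8 mice). With that mean as a covariate, its difference was -0.33 with an interval from -0.53 to -0.13 (adjusted p = 0.123). The list follows Tnfrsf11b within the groups of these same mice, so the narrower interval follows from its use as a covariate.

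The partners of osteoprotegerin did not pass the test. Of 6 measured genes of the RANK ligand and TRAIL axis, 5 had a lower mean in FF, against 9765 of 19659 over all genes. The list median was -0.09. Leukocyte markers also had lower means in FF, and the part of leukocytes in this list was not tested. Tnfrsf11a, the receptor RANK, averaged 7.64 in FF and 7.90 in VV (difference -0.26, adjusted p = 0.172). Tnfsf10, the ligand TRAIL, averaged 8.35 in FF and 8.65 in VV (difference -0.31, adjusted p = 0.204).

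Colec10 was slightly lower in FF, with groups that did not overlap. It encodes collectin liver 1, a secreted lectin that forms complexes with Colec11 and takes part in the lectin pathway of complement. Its log2 intensity was 5.88, 5.90, 5.77, 5.84 and 5.86 in FF replicates 1 to 5, and 6.09, 6.03, 6.05, 6.07 and 6.19 in VV replicates 1 to 5. The spread within each group was narrow, 0.13 from lowest to highest in FF and 0.16 in VV, and the gap between the groups was 0.13. The mean was 5.85 ± 0.05 in FF and 6.09 ± 0.06 in VV (SD of 5 mice each), a difference of -0.24 ± 0.05 (SE), or 1.18-fold lower in FF with a 95% interval from 1.1 to 1.26. The adjusted p was 0.0427, at rank 122 of all genes by p.

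The call of Colec10 was close to the threshold. Its mean lay below 7.53, the median of the means of all genes, and the data hold no detection call. The adjusted p stayed under 0.05 without FF replicate 3 (0.0453), and it was between 0.0604 and 0.0965 when any of the other 9 mice was left out. It was 0.0584 after quantile normalisation, with a difference of -0.20. Colec10 is known from liver, and its level in VV replicate 1, the mouse with the brightest liver genes, was inside the range of the other VV mice. Without that mouse the difference was -0.24, as with it, and the group-centred r of Colec10 with the liver list was -0.08. The part of liver RNA in the difference was not tested. Among the marker lists it ran most closely, in the opposite direction, with macrophages (r = -0.79, rho = -0.84).

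The genes most like Colec10 after the group means were subtracted were Eef2kmt, a lysine methyltransferase of elongation factor 2 (r = 0.950), the olfactory receptor gene Olfr1320 (r = 0.948), the desmosomal cadherin gene Dsc3 (r = 0.946), Klrb1 (r = 0.936) and Gm11567 (r = 0.926). The group means of the last 4 ran from 4.54 to 5.30, and none of the 5 passed the test (adjusted p = 0.306 to 0.967). The 10 measured collectins and lectin pathway genes had a median difference of -0.15, 9 of them with a lower mean in FF and none past the threshold. Colec12, a scavenger receptor of endothelium and stroma, averaged 10.31 in FF and 10.64 in VV (difference -0.33, adjusted p = 0.272). Sftpa1, a lung surfactant collectin, averaged 6.64 in FF and 6.74 in VV (difference -0.09, adjusted p = 0.354). The list mean was 7.08 to 7.20 in FF and 7.22 to 7.74 in VV, where the highest value was that of VV replicate 1, the mouse with the brightest liver genes. The list mean differed by -0.21 with that mouse and by -0.11 without it.

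Has2 encodes the main hyaluronan synthase of mesenchymal cells. It had 6.55, 6.96, 6.73, 7.34 and 7.08 in FF replicates 1 to 5, and 6.78, 7.13, 7.21, 7.19 and 7.83 in VV replicates 1 to 5. VV replicate 5 was the highest mouse and the groups overlapped. The mean was 6.93 ± 0.30 in FF and 7.23 ± 0.38 in VV (SD of 5 mice each), a difference of -0.30 with a 95% interval from -0.71 to 0.12 (adjusted p = 0.487). That difference was -0.14 without VV replicate 5 and at most 0.41 in size without any other single mouse.

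Other genes of hyaluronan metabolism lay on the lower side in FF without passing the test. Of 19 measured genes, 16 had a lower mean in FF, with a median difference of -0.16. In limma 0 passed and 6 had an unadjusted p under 0.05, against 16.4% of all genes. Cd44, the hyaluronan receptor also carried by leukocytes, averaged 8.42 in FF and 8.84 in VV (difference -0.42 ± 0.12 SE, adjusted p = 0.112). Hmmr, a hyaluronan-binding protein of dividing cells, averaged 4.48 in FF and 4.71 in VV (difference -0.23 ± 0.07 SE, adjusted p = 0.118). Beside them, all 6 measured markers of proliferating cells were lower in FF by their means, with list means of 6.51 to 6.89 in FF and 6.88 to 7.56 in VV. The list mean of hyaluronan genes was 7.49 to 7.57 in FF and 7.59 to 8.06 in VV, a difference of -0.21. VV replicate 1, with the brightest liver genes, was the highest at 8.06, and without it the difference was -0.14. The part of liver RNA, leukocytes and dividing cells in the list was not tested.

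Sntb1 and Mal2, which act at membranes and their skeleton, had higher means in FF and did not pass the test. Sntb1 encodes beta-1 syntrophin, an adaptor of the dystrophin complex. It had 11.97, 11.86, 11.81, 11.93 and 11.89 in FF replicates 1 to 5, and 11.83, 11.72, 11.71, 11.68 and 11.85 in VV replicates 1 to 5. Of the 5 FF mice, 4 lay above every VV mouse. The mean was 11.89 ± 0.06 in FF and 11.76 ± 0.07 in VV (SD of 5 mice each), a difference of 0.14 with a 95% interval from 0.03 to 0.24 (adjusted p = 0.195). That gene had the third smallest p of the 9, and its difference stayed between 0.12 and 0.16 whichever mouse was left out.

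Mal2 encodes a four-span membrane protein that carries cargo across polarised epithelial cells. It had 9.22, 8.90, 9.13, 9.17 and 8.72 in FF replicates 1 to 5, and 9.14, 8.74, 8.77, 8.80 and 9.16 in VV replicates 1 to 5. Both groups held high and low mice, and the means were 9.03 ± 0.21 in FF and 8.92 ± 0.21 in VV (SD of 5 mice each). The difference was 0.11 with a 95% interval from -0.15 to 0.37 (adjusted p = 0.708). Group-centred Mal2 ran with the list of mammary and other epithelial markers (r = 0.71, rho = 0.76, n = 10), whose mean was 6.95 to 7.12 in FF and 6.99 to 7.14 in VV. With that list r was 0.68 for Sntb1, 0.62 for Pkhd1l1 and 0.62 for Tnfrsf11b. It ran from -0.54 to 0.40 for the other measured listed genes. With the mesothelium list, which shares Krt19 with the epithelial list, Mal2 had r = 0.58 (rho = 0.42).

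The partners of both genes held no call. In the dystrophin complex, 0 of 14 measured genes passed in limma and 2 had an unadjusted p under 0.05, with a median difference of -0.03. Over all genes 16.4% had an unadjusted p under 0.05. Dag1, which encodes dystroglycan, averaged 11.28 in FF and 11.12 in VV (difference 0.16, adjusted p = 0.187), and Sgcd, delta-sarcoglycan, averaged 10.57 in FF and 10.73 in VV (difference -0.16, adjusted p = 0.206). In the MAL and MARVEL family, 0 of 11 passed in limma and 2 had an unadjusted p under 0.05, with a median of -0.07. Mall averaged 9.70 in FF and 9.52 in VV (difference 0.18, adjusted p = 0.255), and Marveld1 averaged 10.26 in FF and 10.12 in VV (difference 0.14, adjusted p = 0.304).

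The 3 nuclear genes, Taf2, Dscc1 and Mtbp, differed little. Taf2 encodes a subunit of TFIID, the factor that recognises core promoters. It had 9.48, 9.73, 9.69, 9.78 and 9.66 in FF replicates 1 to 5, and 9.59, 9.63, 9.53, 9.45 and 9.55 in VV replicates 1 to 5. All FF mice but replicate 1 lay above every VV mouse. The mean was 9.67 ± 0.11 in FF and 9.55 ± 0.07 in VV (SD of 5 mice each), a difference of 0.12 with a 95% interval from -0.01 to 0.25 (adjusted p = 0.368). Without FF replicate 1, the mouse with the brightest muscle genes, the difference was 0.16 (adjusted p = 0.178). The group-centred r of Taf2 was 0.78 (rho = 0.65) with brown and beige adipocyte markers and -0.69 (rho = -0.54) with skeletal muscle markers.

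Dscc1 encodes a part of the alternative clamp loader that helps sister chromatids cohere. It had 5.24, 5.11, 5.21, 4.88 and 4.90 in FF replicates 1 to 5, and 5.03, 4.97, 5.00, 4.99 and 5.01 in VV replicates 1 to 5. The FF mice split around the VV mice, 3 above all of them and 2 below, with an SD of 0.17 in FF and 0.02 in VV. The difference was 0.07 with a 95% interval from -0.09 to 0.23 (adjusted p = 0.698).

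Mtbp encodes a protein found through its binding to Mdm2, which works with Ticrr in the firing of replication origins. It had 5.67, 6.11, 5.93, 5.70 and 6.13 in FF replicates 1 to 5, and 5.73, 5.89, 5.88, 6.0 and 5.95 in VV replicates 1 to 5. Here too the FF mice lay on both sides of the VV mice, and the SD was 0.22 in FF and 0.10 in VV. The difference was 0.02 with a 95% interval from -0.20 to 0.23 (adjusted p = 0.951), and its sign changed when replicate 2 or 5 of FF or replicate 1 of VV was left out. The difference in spread between the groups was not tested for either gene.

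The partner lists of the nuclear genes had median differences from -0.08 to 0.03, and no gene passed the test. In TFIID, 10 of 12 measured genes had a higher mean in FF, with a median difference of 0.03, and 0 passed in limma while 1 had an unadjusted p under 0.05. That gene was Taf8, which averaged 7.89 in FF and 7.75 in VV (difference 0.13, adjusted p = 0.202), and Taf5 differed by 0.11 (adjusted p = 0.478). In cohesin and its loading clamp, 0 of 19 passed in limma or had an unadjusted p under 0.05, with a median of 0.00. Rfc5, a clamp loader subunit, differed by -0.13 (adjusted p = 0.382), and Esco2, a cohesin acetyltransferase, by -0.17 (adjusted p = 0.390). Among genes of origin firing and Mdm2, 0 of 17 passed in limma and 4 had an unadjusted p under 0.05, with a median of -0.08. Over all genes 16.4% had an unadjusted p under 0.05. Gins1, a subunit of the replicative helicase, differed by 0.15 (adjusted p = 0.252), and Mdm2, the ubiquitin ligase of p53, by -0.14 (adjusted p = 0.255).

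The lysophosphatidic acid pathway, to which autotaxin (Enpp2) belongs, was read through 12 of 14 other genes. None passed in limma, 0 had an unadjusted p under 0.05, and the median difference was -0.04. Lpar1, a receptor of lysophosphatidic acid, averaged 8.96 in FF and 9.08 in VV (difference -0.11, adjusted p = 0.606). Plpp3, a phosphatase that degrades it, averaged 11.80 in FF and 11.88 in VV (difference -0.08, adjusted p = 0.624). Over all 10 partner lists, 121 of 129 genes were measured. Of these 0 passed in limma, and 14.9% had an unadjusted p under 0.05, against 16.4% of all genes.

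The listed genes were then set beside every other measured gene of the stretch. From Pkhd1l1 to Has2 in reference order 29 genes were measured, and Pkhd1l1 stands 23 places before Deptor while the other 8 listed genes stand within 7 places of it. Of the 29 genes 3 passed the threshold (10.3%), Deptor, Pkhd1l1 and Colec10, against 0.81% of 741 measured genes on chromosome 15 and 0.753% of all genes. Since the list was made with these differences known, that share is a description. The groups did not overlap for 4 of the 29 (13.8%), against 4.7% of all genes. Deptor, Pkhd1l1 and Colec10 are among these 4, so that share is a description too. Of the 19 genes that are neither listed nor Deptor, none passed and 1 had groups that did not overlap. Their median size of difference was 0.06, against 0.07 over all genes.

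**Figure D4:**
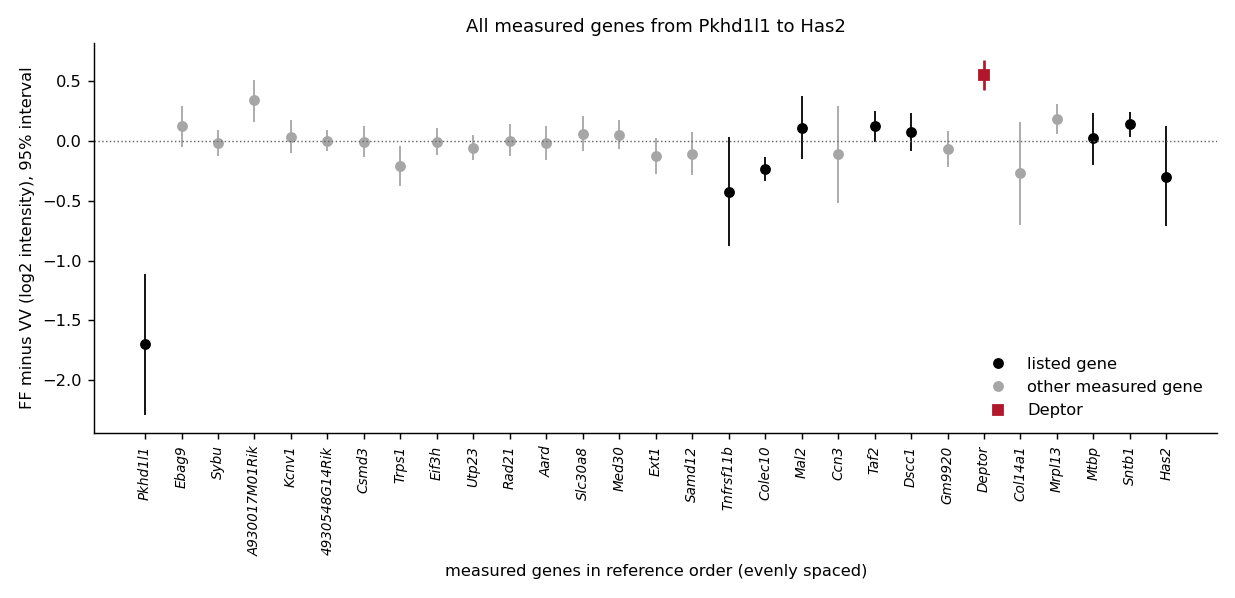
Difference FF minus VV in log2 intensity with 95% intervals (vertical axis) for the 29 measured genes from Pkhd1l1 to Has2, evenly spaced in reference order, with listed genes in black, Deptor in red and other genes in grey. Deptor (0.55) and Pkhd1l1 (-1.70) lie farthest from 0 and the genes between Pkhd1l1 and Tnfrsf11b lie between -0.21 and 0.34.

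The genes near Deptor had mean differences of both signs, and none was higher in FF past the threshold. The 15 measured genes between Pkhd1l1 and Tnfrsf11b had a median difference of -0.01 and the 12 from Tnfrsf11b to Has2 without Deptor a median of -0.03, and 0 of the first set and 1 of the second passed in limma. The median size of difference was 0.05 in the first set and 0.13 in the second, against 0.07 over all genes. A size over 0.25 was reached by 6.67% and 25.0% of them, against 8.91% of all genes. Most genes of the second set are listed, and the list was made with these differences known, so these shares are a description. Over the 19 genes of the stretch that are neither listed nor Deptor, the median size was 0.06 and 10.5% were over 0.25. An unadjusted p under 0.05 was reached by 2 of the 15 and 3 of the 12, against 16.4% of all genes. Directly before Deptor, and overlapping it in the reference, the noncoding gene Gm9920 had 6.34 to 6.54 in FF and 6.38 to 6.68 in VV (difference -0.07, adjusted p = 0.659). Directly after it, Col14a1, a collagen of fibrous tissue, had 9.72 to 10.71 in FF and 10.21 to 10.78 in VV (difference -0.27, adjusted p = 0.547).

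The remaining gene of the stretch whose groups did not overlap was the transcribed pseudogene A930017M01Rik, 3 places after Pkhd1l1 and named here after its values were seen. Its brighter probe set had 6.52, 6.19, 6.18, 6.36 and 6.13 in FF replicates 1 to 5, and 5.90, 5.86, 5.86, 6.09 and 5.98 in VV replicates 1 to 5. The difference was 0.34 ± 0.08 (SE), just short of the threshold (adjusted p = 0.0719). It passed after quantile normalisation (adjusted p = 0.049), with the mean of its probe sets (0.0419) and with array weights (0.0406), and did not pass when any single mouse was left out (0.0659 to 0.159). The dimmer probe set of the pseudogene averaged 6.02 in FF and 5.57 in VV, a difference of 0.45 that also left the groups apart. It lay higher in FF, opposite to Pkhd1l1, while Ebag9 and Sybu, the 2 measured genes between them, differed by 0.12 (adjusted p = 0.474) and -0.02 (adjusted p = 0.867).

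**Figure D5:**
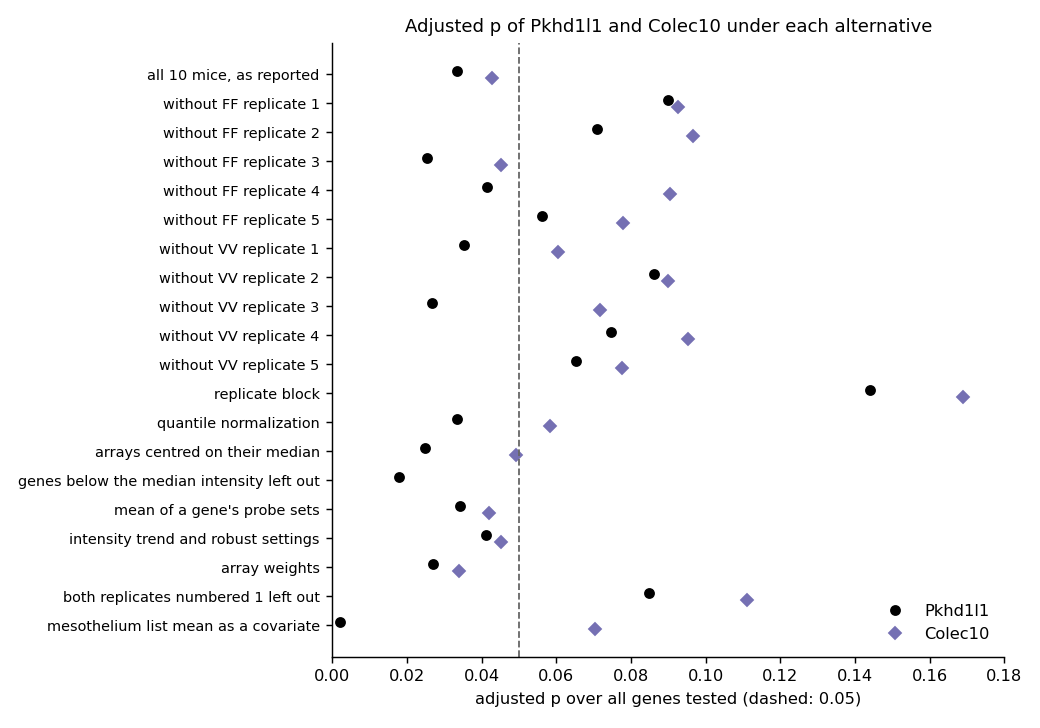
Adjusted p over all genes (horizontal axis, dashed line at 0.05) of Pkhd1l1 (circles) and Colec10 (diamonds) with all 10 mice and under each alternative. Pkhd1l1 lies to the right of the line in 8 of the alternatives shown and Colec10 in 13, and Colec10 has no value where genes below the median intensity were left out.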

How the data were processed

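The authors deposited log2 intensities, made with RMA per the submitters' processing notes. For the genome build, the RMA version and any scan date the sources used here give nothing. Of 35557 probe sets, 25689 had values on all 10 arrays and 9868 on none. Of the valued ones, 20777 named 1 gene, 232 named several and 4680 were not named; the last 2 kinds were left out. The brightest probe set stood for each of 19659 genes. Names, chromosome and gene order came from RefSeq (GRCm38.p6), matched for 20699 probe sets. FF was compared with VV over all genes with limma 3.58.1 in R 4.3.3 (lmFit and eBayes, two-sided, no covariates); p-values were adjusted by Benjamini-Hochberg over the whole table, and 0.05 was the threshold. Every difference is FF minus VV. The procedure was tested on simulated data for the FF against VV comparison with 19659 genes: 83 of 100 genes shifted by 0.5 log2 units and 95 of 100 shifted by 1 unit were recovered, with 8 false calls among 186. The noise was independent between genes, so these rates need not hold for the real data. Partner and marker lists and the naming rule (all listed genes, Deptor, genes of the stretch past the threshold, the nearest genes of Deptor, the 2 smallest p of each partner list and the 5 genes most like each listed gene past the threshold) were written with earlier results of these data known, as was the list of members. Likeness was the Pearson correlation after subtracting each group's mean. Same-numbered FF and VV mice deviated from their group means with correlations from -0.264 to 0.102, so the numbers were not taken as pairs. Alternatives left out each mouse, blocked by replicate number, changed the normalisation, filter, probe set rule, moderation, weights or threshold, left out both mice numbered 1, or took the mesothelium marker mean as a covariate; the last 2 were chosen after seeing the data. The number of arrays limits the precision. Figures were drawn with matplotlib 3.10.9.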

Additional observations from a re-analysis of the deposited data

How the results depend on the processing

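Of all genes, 148 passed with all mice. The count lay between 7 and 379 when single mice were left out, and it was 5 with a replicate block, 95 after quantile normalisation, 346 with arrays centred on their median, 355 without genes below the median intensity, 383 with array weights, 704 at an adjusted p of 0.10, 28 without both mice numbered 1 and 45 with the mesothelium mean as a covariate. The 2 listed genes past the threshold became between 0 and 2 when single mice were left out, 0 with the replicate number as a block or without both mice numbered 1, and 1 after quantile normalisation, without genes below the median intensity (which removed Colec10, Dscc1, Mtbp and Has2) or with the mesothelium covariate. The 3 genes of the stretch became between 1 and 3 when single mice were left out, 0 with the block and 1 without both mice numbered 1. They became 4, with A930017M01Rik added, with probe sets averaged per gene, with array weights and at an adjusted p of 0.10, and after quantile normalisation they stayed at 3 with A930017M01Rik in place of Colec10. Deptor had an adjusted p of 0.0539 with the block and passed in every fit that left out mice. The block gave Pkhd1l1 an adjusted p of 0.144 and Colec10 one of 0.169. The difference of Mtbp ran from -0.038 to 0.078 over single mice left out and was -0.038, -0.03 and -0.021 where its sign turned. The other 8 listed genes kept their direction in every fit that gave a value, and none of the 7 genes that did not pass gained the threshold. No partner gene passed in any fit. The cause of these changes was not tested. No detection call or background level bounds the dim probe sets of Dscc1, Colec10 and Mtbp.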
